A study of Mus musculus with 6 samples.

Results

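The clustered protocadherins are the cadherin-like cell surface proteins encoded by the Pcdha, Pcdhb and Pcdhg gene clusters of mouse chromosome 18. Members were taken by symbol, as every gene of the table named Pcdha, Pcdhb, Pcdhga, Pcdhgb, Pcdhac or Pcdhgc followed by a number, which gave 58 of 56953 genes. They comprised 12 alpha genes, 22 beta genes, 12 gamma A genes, 7 gamma B genes and 5 C-type genes (Pcdhac1, Pcdhac2, Pcdhgc3, Pcdhgc4 and Pcdhgc5). RNA had been sequenced from 6 mouse pancreatic ductal adenocarcinoma (PDAC) cell lines derived from KPC mice, a genetically engineered model of this cancer. The lines were KPC142, KPC180, KPC469, KPC490, KPC630 and KPC850, each untreated as far as the labels say and each represented by 1 library. The labels give no alleles, no clone status and no class of CD8+ T cell infiltration for any line, so the lines were set side by side and no difference between groups was tested.

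In the alpha and gamma clusters, each variable first exon has its own promoter and is spliced to a set of constant exons that all genes of the cluster share. Beta genes have no constant exons. In neurons each cell switches on its own small set of variable exons, through CTCF, cohesin and DNA methylation at the promoters, and the resulting proteins bind only their own kind on a neighbouring cell. C-type genes are known for more uniform use, and Pcdhgc3 is also transcribed in epithelial tissues.

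Library totals ran from 16471558 to 18701274 expected counts, and levels are given in CPM, that is counts scaled by each library's total, with totals adjusted by TMM factors. A single count was worth 0.0532 to 0.0607 CPM. Where a line had 0 counts of a gene, the ratio uses 3 counts in its place (0.160 to 0.182 CPM) and is a lower bound. Intervals are exact 95% intervals of counting error and do not cover differences between cultures of a line, nor the way reads were shared among genes. Ductal epithelial markers were present in every line, with summed levels over 11 genes, led by Krt8, of 2920 CPM in KPC469 and 7175 to 12123 CPM in the other lines. Of these genes, Epcam was low, at 0.243 CPM in KPC180 and at most 10.5 CPM in KPC630, and Cldn4 was under 0.5 CPM in 4 lines. Markers of other cell types were low, except that 13 neuronal genes, led by Map2, summed to 135.2 CPM in KPC630 and to 19.2 to 42.1 CPM elsewhere. Of these neuronal genes, 7 reached 1 CPM in a line. In KPC630, Map2 had 62.1 CPM, Ncam1 45.3, Tubb3 14.2 and Stmn2 12.2, while Rbfox3, Elavl4 and Dcx had 0 counts in every line. Sox10, which defines glia and neural crest, also had 0 counts in every line. Sums were 0.659 to 7.30 CPM for 8 fibroblast genes, led by Pdgfrb and highest in KPC469, and 0.163 to 2.66 CPM for 4 endothelial genes, led by Kdr. They were 1.27 to 3.89 CPM for 6 immune genes, led by Cd68. Acinar genes, 5 in number and led by Cela1, summed to 0.958 to 20.9 CPM, and 4 endocrine genes, led by Chga, to at most 0.0532 CPM. Any part of such cells or of line state in the protocadherin levels was not tested.

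Reads of the gamma genes were not all unique to a gene. By the annotation, a median of 44.8% of the exon bases of a gamma A or B gene belonged also to another member, with a median of 2119 shared bases. Pcdhgb1 and the gene after it, Pcdhga4, had the most shared bases, at 3154 and 3157. Of the deposited values, 89 of 98 non-zero gamma A and B values and 17 of 18 gamma C values carried a fractional part, against 16.4% of non-zero values over all genes. A value was called whole only where nothing but 0 followed its decimal point as deposited. Beta values were whole in all but 2 of 65 cases. Of the 50-base stretches of a beta transcript, a median of 4.46% occurred in another gene, with a highest value of 12.0% in Pcdhb12. Gamma levels are therefore estimates of how shared reads divide among members, and a count of 0 means that no read was assigned to the gene.

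Of the 58 members, 29 reached 1 CPM in at least 1 line, or 50%, against 24.5% of all genes of the table. All members but Pcdhgb8 are annotated as protein-coding, whereas the table also holds non-coding genes and pseudogenes. The share among protein-coding genes was not computed, so 50% against 24.5% is not a like comparison. The 29 expressed members were 8 beta, 11 gamma A, 7 gamma B and 3 C-type genes, with 0 of the 12 alpha genes. Without KPC469, 2 beta genes were expressed. KPC469 expressed 24 members, KPC180 14, KPC142 9, KPC490 8, KPC630 7 and KPC850 6. Over all genes the share at 1 CPM was nearly level, at 21.8% in KPC630, 21.7% in KPC142, 21.6% in KPC469, 21.5% in both KPC180 and KPC490, and 21.4% in KPC850. At this cut of 1 CPM the number of members expressed thus varied 4-fold between KPC469 and KPC850, where the number of all genes hardly varied. The contrast was smaller at 2 CPM, with 14 members in KPC469, 12 in KPC180, 6 in KPC850 and 5 in KPC630. Counting members with any count, it was 38 in KPC469 and 25 in KPC850. Only 3 members, Pcdhgc3, Pcdhgc4 and Pcdhgb6, were at 1 CPM or more in all 6 lines, and 14 reached that level in a single line.

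Nearly all expressed members differed widely between lines. A ratio of 4 or more between the highest and the lowest line was found for 27 of 29 (93.1%), against 27.1% of all genes at 1 CPM or more in a line, and the median ratio, here with any line under 3 counts set at 3 counts, was 11.8 against 2.16. Low genes vary more in any such count, so members were also read by level. Of 20 members whose highest level lay between 1 and 10 CPM, 20 passed, against 59.1% of all genes at that level. Of 9 members with a highest level of 10 CPM or more, 7 passed, against 15.5% of all such genes. Among these 9, 5 had 0 counts in at least 1 line, which was true of 1.31% of all genes reaching 10 CPM. Where the whole counting interval of the ratio had to lie at 4 or above, 21 of 29 members passed, against 19.6% of all genes at 1 CPM. Leaving out KPC469, the line with most expressed members, left 17 expressed members, of which 15 had a ratio of 4 or more, against 22.2% of all genes over the other 5 lines.

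**Figure D1:**
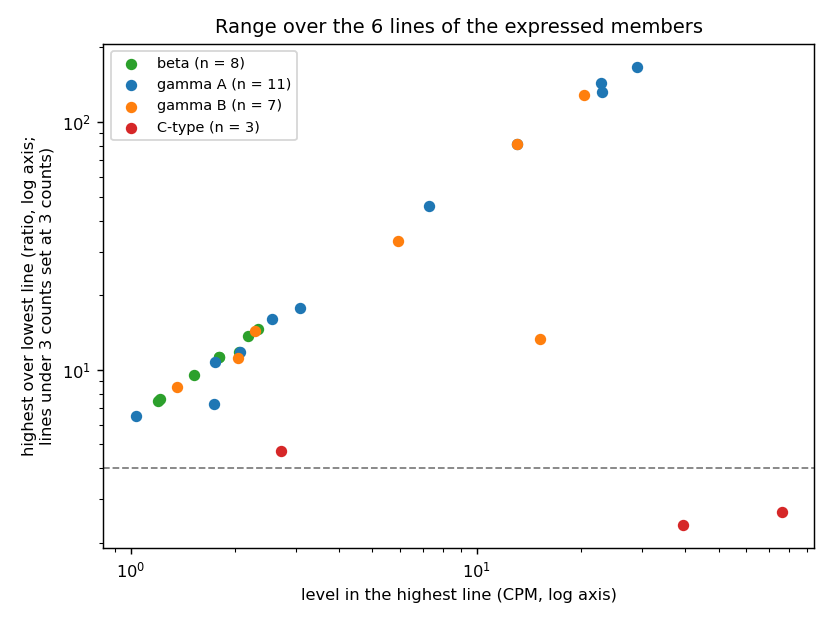
Each point is 1 of the 29 expressed members, with its level in the highest line (x axis, CPM, log scale) against the ratio of its highest to its lowest line (y axis, log scale, lines under 3 counts set at 3 counts), coloured by subfamily; the dashed line marks a ratio of 4. All but Pcdhgc3 and Pcdhgc4, the 2 members with the highest levels, lie above the line.

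The line with the highest level was not the same for all members. KPC469 was highest for 15 of 29 members, against 21.2% of all expressed genes, and KPC180 for 8, against 15.9%. Only 17 of the 29 members were also expressed without KPC469, and the rest have KPC469 as their highest line by the 1 CPM filter itself. Over all genes, 13722 of 13935 stayed expressed without KPC469, so the shares of members and of all genes are not a like comparison. KPC630 and KPC850 were highest for 2 members each, against 14.2% and 14.6% of all expressed genes. KPC142 and KPC490 were highest for 1 each, against 19.5% and 14.6%.

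The alpha cluster was silent. Its 12 genes together had 3 counts in KPC142, 2 in KPC490, 1 each in KPC180 and KPC630 and 0 in KPC469 and KPC850. The upper limit of the summed level was 0.201 to 0.525 CPM over the lines. Of the 12 alpha genes, 6 had 0 counts in every library, and the highest, Pcdha9, had 2 counts in KPC142. The alpha C-type genes Pcdhac1 and Pcdhac2 also had 0 counts in every line, with an upper limit of 0.196 to 0.224 CPM for each over the lines. In the annotation used, 2 identifiers carry the name Pcdha11, and each had a fractional value that rounds to 1 count, in KPC490.

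Beta genes were weakly expressed, and KPC469 had the most. The 22 genes summed to 15.9 CPM in KPC469 (interval 14.1 to 17.8), 5.77 CPM in KPC180, 2.34 CPM in KPC142, 2.32 CPM in KPC490, 0.991 CPM in KPC850 and 0.479 CPM in KPC630 (0.219 to 0.910). The ratio of KPC469 to KPC630 was 33.2 (17.3 to 73.3). Without KPC469 the highest line was KPC180, at 12.0 times KPC630 (6.08 to 27.1). In KPC469 beta counts made up 9.73% of all member counts, and 2.60% or less in each other line. No single beta gene carried the sum in KPC469, where the highest, Pcdhb19, held 14.7% of it.

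Of the 8 expressed beta genes, 7 reached 1 CPM in a single line. Pcdhb19 had 2.34 CPM in KPC469, 0.546 in KPC180, 0.300 in KPC142, 0.290 in KPC490, 0.117 in KPC850 and 0 in KPC630, so that KPC469 stood at least 14.7-fold above KPC630. Pcdhb16 had 2.18 CPM in KPC469, 0.291 in KPC850, 0.232 in KPC490, 0.182 in KPC180, 0.0599 in KPC142 and 0 in KPC630, at least 13.6-fold between KPC469 and KPC630. KPC469 lay apart from the rest for both genes. Pcdhb22, at the gamma-facing end of the beta cluster, had its highest level in KPC180, at 2.06 CPM, with 1.25 in KPC469, 0.523 in KPC490, 0.419 in KPC142, 0.266 in KPC630 and 0.0583 (1 count) in KPC850. Its ratio of KPC180 to KPC469 was 1.65 with an interval of 0.942 to 2.93, so these 2 lines did not differ beyond counting error. The other 5 expressed beta genes, Pcdhb5, Pcdhb14, Pcdhb17, Pcdhb18 and Pcdhb20, peaked between 1.20 and 1.80 CPM, in KPC469 for all but Pcdhb5. Pcdhb14 had 28 counts in KPC469 and 0 in each other line. The remaining 14 beta genes stayed at 0.708 CPM or less, and Pcdhb13 had 0 counts throughout.

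**Figure D2:**
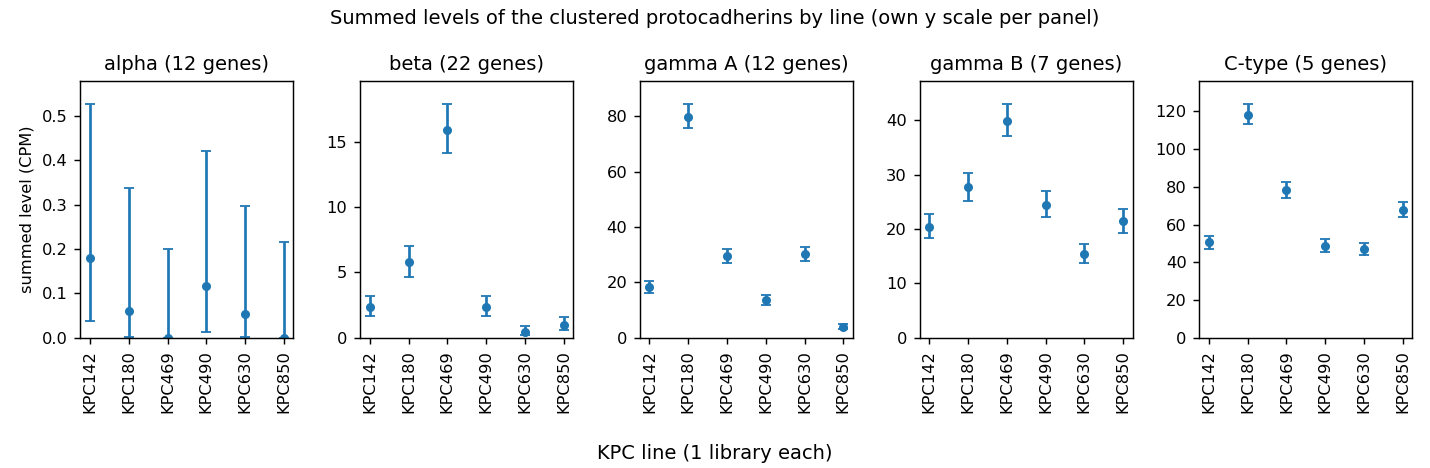
Points give the summed level (y axis, CPM, a separate scale in each panel) of each subfamily in each line (x axis, 1 library each), and bars are exact 95% Poisson intervals of counting error. The alpha sum stays at or under 0.180 CPM, the beta sum peaks in KPC469 at 15.9 CPM, and the gamma A sum peaks in KPC180 at 79.9 CPM and is lowest in KPC850 at 3.91 CPM.

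The gamma cluster supplied 90.3% to 99.4% of all member counts in a line. Its 22 genes summed to 225.9 CPM in KPC180, 147.7 in KPC469, 93.1 in KPC850, 92.7 in KPC630, 89.2 in KPC142 and 87.1 in KPC490, and the ratio of KPC180 to KPC490 was 2.59 (2.44 to 2.76).

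Pcdhgc3 (ENSMUSG00000102918), the most broadly used C-type gene, was the highest member in every line, also per length. It had 76.3 CPM in KPC180, 49.3 in KPC469, 41.2 in KPC850, 30.7 in KPC490, 29.7 in KPC630 and 28.6 in KPC142, and the ratio of KPC180 to KPC142 was 2.67 (2.40 to 2.97). Per kilobase of transcript these levels were 6.10 to 16.3 CPM. Pcdhgc4 (ENSMUSG00000023036), which in mice is needed for the survival of neurons, followed the same order at the top, with 39.4 CPM in KPC180, 26.3 in KPC469, 25.8 in KPC850, 21.2 in KPC142, 17.7 in KPC490 and 16.7 in KPC630. Its ratio of KPC180 to KPC630 was 2.36 (2.06 to 2.71), and per kilobase its level was 3.33 to 7.85 CPM. Pcdhgc5, usually found in mature neurons, was low: 2.72 CPM in KPC469, 2.55 in KPC180, 0.839 in KPC142, 0.816 in KPC850, 0.639 in KPC630 and 0.581 in KPC490. KPC469 and KPC180 thus lay above the other 4 lines for Pcdhgc5, and their own ratio of 1.07 (0.695 to 1.65) was within counting error.

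The gamma A and B genes, the variable genes of the cluster, differed from line to line in which genes were used. Of these 19 genes, 18 reached 1 CPM in a line and Pcdhga8 did not, at 0.933 CPM in KPC850. Summed levels of gamma A genes were 79.9 CPM in KPC180, 30.3 in KPC630, 29.5 in KPC469, 18.3 in KPC142, 13.7 in KPC490 and 3.91 in KPC850, a ratio of 20.4 (15.99 to 26.5) between KPC180 and KPC850. Gamma B sums varied less, with 39.9 CPM in KPC469, 27.7 in KPC180, 24.5 in KPC490, 21.5 in KPC850, 20.4 in KPC142 and 15.4 in KPC630, a ratio of 2.58 (2.25 to 2.97) between KPC469 and KPC630. Gamma A made up 4.15% of all member counts in KPC850 (3.23 to 5.24), where it expressed 0 of 12 genes at 1 CPM, and 34.5% in KPC180 (33.0 to 36.0).

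Pcdhga11 was the variable gene with the highest level. It had 29.1 CPM in KPC180 (479 counts), 3.30 in KPC630, 1.04 in KPC469, 0.350 in KPC850 and 0 counts in KPC142 and KPC490, and KPC180 stood at least 162-fold above KPC142. Pcdhga10, which lies on the other side of Pcdhgb7, had a different order, with 23.0 CPM in KPC630 (432 counts), 8.92 in KPC180, 8.51 in KPC142, 6.91 in KPC490, 0.218 in KPC469 and 0 counts in KPC850. KPC630 was at least 132-fold above KPC850 for Pcdhga10, and 2.58-fold (2.13 to 3.13) above KPC180. KPC142 and KPC490 thus had Pcdhga10 transcripts and no count of Pcdhga11.

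Pcdhgb2 showed the converse gap in KPC630. It had 20.5 CPM in KPC469, 17.4 in KPC180, 14.9 in KPC490, 10.7 in KPC850, 2.52 in KPC142 and 0 counts in KPC630, at least 128-fold between KPC469 and KPC630. KPC630 was the line without it although that library was the deepest of the 6. Pcdhga5 had 22.9 CPM in KPC180, 4.25 in KPC142, 3.70 in KPC469, 0.639 in KPC490, 0.408 in KPC850 and 0.0532 (1 count) in KPC630, a ratio of 431 (76.9 to 17063) between KPC180 and KPC630. Pcdhga7 had 13.0 CPM in KPC180, 7.85 in KPC469, 2.22 in KPC142, 0.233 in KPC850, 0.174 in KPC490 and 0 in KPC630. KPC180 stood at least 81.7-fold above KPC630 for Pcdhga7.

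Pcdhgb1 was all but private to KPC469. It had 13.1 CPM there (240 counts), against 0.174 in KPC490 (3 counts), 0.0607 in KPC180 and 0.0599 in KPC142 (1 count each) and 0 counts in KPC630 and KPC850. The ratio of KPC469 to the next line, KPC490, was 75.0 (25.4 to 366). Pcdhga4, the gene after Pcdhgb1, was also highest in KPC469, at 7.30 CPM. Any part of reads shared between these genes was not tested. Pcdhgb6, the 1 variable gene expressed in every line, ran the other way, with 15.2 CPM in KPC142, 13.7 in KPC630, 6.13 in KPC180, 3.54 in KPC490, 2.39 in KPC850 and 1.14 in KPC469. KPC142 and KPC630 did not differ beyond counting error (ratio 1.11, 0.928 to 1.32), and the ratio of KPC142 to KPC469 was 13.3 (8.52 to 21.9).

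**Figure D3:**
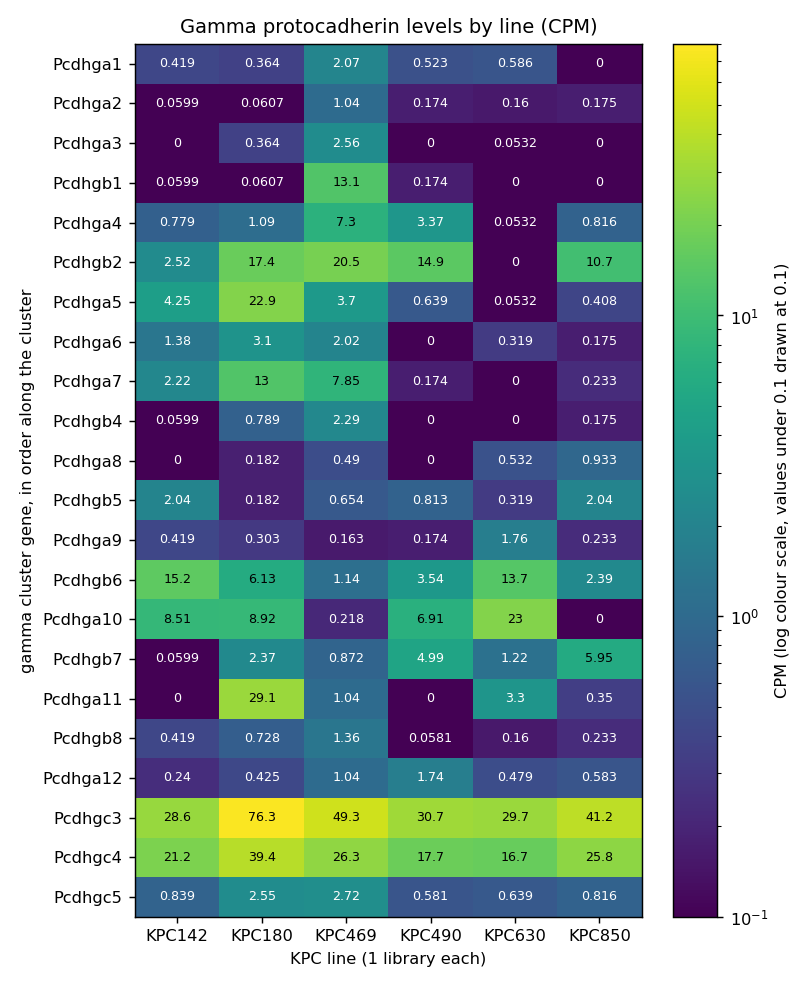
Levels of the 22 gamma cluster genes (rows, in order along the cluster) in the 6 lines (columns, 1 library each); the number in a cell is the level in CPM and the colour follows a log scale. Pcdhgc3 and Pcdhgc4 are bright in every column, whereas many variable genes are bright in some columns and near 0 in others, such as Pcdhgb1 at 13.1 CPM in KPC469 and Pcdhga11 at 29.1 CPM in KPC180; Pcdhgb6 is at 1.14 CPM or more in all columns and Pcdhga8 under 1 CPM in all.

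Variable genes of middle rank gave further combinations. Pcdhga4 had 7.30 CPM in KPC469, 3.37 in KPC490, 1.09 in KPC180, 0.816 in KPC850, 0.779 in KPC142 and 0.0532 (1 count) in KPC630. Pcdhgb7 had 5.95 CPM in KPC850, 4.99 in KPC490, 2.37 in KPC180, 1.22 in KPC630, 0.872 in KPC469 and 0.0599 (1 count) in KPC142. KPC850 and KPC490 did not differ for Pcdhgb7 beyond counting error, at a ratio of 1.19 (0.885 to 1.60). Pcdhga6 had 3.10 CPM in KPC180, 2.02 in KPC469, 1.38 in KPC142, 0.319 in KPC630, 0.175 in KPC850 and 0 in KPC490. Pcdhgb5 was shared by KPC850 and KPC142 at 2.04 CPM each, with 0.813 in KPC490, 0.654 in KPC469, 0.319 in KPC630 and 0.182 in KPC180. Each of these 4 genes thus had a different pair of leading lines.

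KPC469 was also highest for Pcdhga1 and Pcdhga3, at the beta end of the gamma cluster, and for Pcdhgb4. Pcdhga1 had 2.07 CPM in KPC469, 0.586 in KPC630, 0.523 in KPC490, 0.419 in KPC142, 0.364 in KPC180 and 0 in KPC850. Pcdhga3 had 2.56 CPM in KPC469, 0.364 in KPC180, 0.0532 in KPC630 and 0 counts in KPC142, KPC490 and KPC850. Pcdhgb4 had 2.29 CPM in KPC469, 0.789 in KPC180, 0.175 in KPC850, 0.0599 in KPC142 and 0 counts in KPC490 and KPC630. For all 3 genes KPC469 stood apart from the other lines. The other 4 expressed variable genes peaked between 1.04 and 1.76 CPM: Pcdhga2 and the polymorphic pseudogene Pcdhgb8 in KPC469, Pcdhga9 in KPC630 and Pcdhga12 in KPC490.

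Each line therefore had its own mixture of gamma A and B transcripts. As shares of the summed level per kilobase, KPC630 was made up of Pcdhga10 (50.2%), Pcdhgb6 (30.3%) and Pcdhga11 (7.16%). KPC142 was led by Pcdhgb6 (39.5%), Pcdhga10 (21.9%) and Pcdhga5 (11.1%), and KPC180 by Pcdhga11 (26.8%), Pcdhga5 (21.5%) and Pcdhgb2 (16.4%). Pcdhgb2 led KPC850 (42.4%), KPC490 (39.4%) and KPC469 (29.8%). It was followed in KPC850 by Pcdhgb7 (23.3%), in KPC490 by Pcdhga10 (18.02%) and in KPC469 by Pcdhgb1 (18.8%). No leading trio was the same in any pair of lines.

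The breadth of the mixture differed as well. The effective number of variable genes, which is the number of equally used genes with the same Shannon entropy, was 9.51 in KPC469, 7.49 in KPC180, 6.39 in KPC142, 6.23 in KPC490, 6.05 in KPC850 and 4.08 in KPC630. The number at 1 CPM or more was 14 in KPC469, 9 in KPC180, 7 in KPC142, 6 in KPC490, 5 in KPC630 and 4 in KPC850. Total counts behind these values ran from 435 in KPC850 to 1772 in KPC180, with 1273 in KPC469. At 1 CPM, KPC469 expressed more of the genes than KPC180 on fewer counts. In KPC469, however, Pcdhga2, Pcdhga11 and Pcdhga12 (1.04 CPM each), Pcdhgb6 (1.14) and Pcdhgb8 (1.36) lay near that cut. In KPC180, Pcdhga4 (1.09 CPM) did so. No gamma A or B gene had 0 counts in either line.

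Between lines, the overlap of the mixtures was the sum over genes of the smaller of the 2 shares. It was highest for KPC490 and KPC850, at 72.4%, and lowest for KPC469 and KPC630, at 10.4%. KPC469 expressed 14 variable genes and KPC630 expressed 5, and 2 were common to both, which is 14.3% of those in KPC469 and 40.0% of those in KPC630. Over all genes of the table, 94.5% of those at 1 CPM in KPC469 were also at 1 CPM in KPC630, and 93.6% of those in KPC630 also in KPC469. Of all 13935 genes at 1 CPM in a line, however, 10234 reached 10 CPM. Several variable genes of KPC469 lay just over 1 CPM there, such as Pcdhga2 (1.04 CPM) and Pcdhgb6 (1.14 CPM). The overlap was not compared with that of genes at a like level. KPC142 and KPC630 shared 57.2% of their mixtures. KPC490 and KPC630 shared 34.2%.

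Position along the cluster separated the same extremes. With the 19 gamma A and B genes numbered from Pcdhga1, next to the beta cluster, to Pcdhga12, next to Pcdhgc3, the share-weighted mean place was 14.5 in KPC630, 12.0 in KPC142, 11.2 in KPC180, 10.4 in KPC850, 10.3 in KPC490 and 6.76 in KPC469. The 9 genes nearest the beta cluster held 86.7% of the mixture in KPC469, 54.6% in KPC180, 52.6% in KPC490, 49.5% in KPC850, 30.3% in KPC142 and 2.69% in KPC630. KPC469 thus drew mainly on genes at the beta end, in the line where beta genes were also highest, and KPC630 almost wholly on genes at the C-type end, in the line where beta genes were lowest. KPC180 came next after KPC469 in the beta sum and in the share of the 9 genes nearest the beta cluster. By mean place, however, KPC490 (10.3) and KPC850 (10.4) lay nearer to KPC469 than KPC180 did (11.2). The other lines did not keep the order of the beta sums. KPC142 had a higher beta sum than KPC850 (2.34 against 0.991 CPM) and a smaller share at the beta end (30.3% against 49.5%).

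Likeness among expressed members was described over the 6 lines. The median Pearson correlation of log2(CPM + 0.1) was 0.78 for 28 pairs of expressed beta genes (0.37 to 0.96) and 0.10 for 153 pairs of gamma A and B genes (-0.98 to 0.96). Of the 8 beta genes, 6 were expressed only in KPC469, so the choice of expressed genes by itself gives them a shared peak. For the 17 pairs of expressed gamma A and B genes that follow each other in order, passing over Pcdhga8, the median was 0.75 (-0.33 to 0.87). Pcdhga1, Pcdhga2, Pcdhga3 and Pcdhgb1, which follow each other, were also expressed only in KPC469, as were Pcdhgb4 and Pcdhgb8. The choice of expressed genes therefore gives these genes a shared peak too, and its part in the value for neighbours was not tested. Beta and gamma A or B genes had a median of 0.50 over 144 pairs (-0.92 to 0.99). The 3 gamma C genes had correlations of 0.82 to 0.95 with each other. These values describe 6 libraries, and genes of 1 cluster share libraries and, in the gamma cluster, the constant-exon reads.

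Most genes beside the clusters had small ratios. Of 18 listed neighbours on chromosome 18, 16 reached 1 CPM and 1 of these had a ratio of 4 or more (6.25%, against 27.1% of all expressed genes), with a median ratio of 1.80 against 2.16. Among the 13 that reached 10 CPM it was 1, against 15.5% of all such genes. Hars, the histidyl-tRNA synthetase gene on the alpha side, ran from 158.1 CPM in KPC469 to 111.5 CPM in KPC142, and Diaph1, an actin-nucleating formin gene on the gamma side, from 110.5 CPM in KPC180 to 76.9 CPM in KPC142. Taf7, a general transcription factor gene between the beta and gamma clusters, ran from 5.89 CPM in KPC180 to 2.997 CPM in KPC469. Other neighbours at 1 CPM or more were Ik, Wdr55, Dnd1, Hars2, Zmat2, Hdac3, Rell2, Fchsd1, Pcdh1, Rnf14, Gnpda1 and Ndfip1, with ratios of 1.34 to 2.91. The exception was Arap3, a GTPase-activating protein gene, with 175.9 CPM in KPC180 and 7.30 CPM in KPC469 (ratio 24.1, 20.3 to 28.9).

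Chromosome 18 as a whole also differed slightly between lines. The median over 261 other genes of the chromosome with at least 10 CPM in a line, relative to the median of the lines, was highest in KPC180, at 0.32 log2 units, and lowest in KPC142, at -0.26. It was 0.14 in KPC850, -0.20 in KPC630, 0.01 in KPC469 and -0.01 in KPC490. KPC180 was also the line with the highest summed gamma level, and the part of this shift in that result was not tested.

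**Figure D4:**
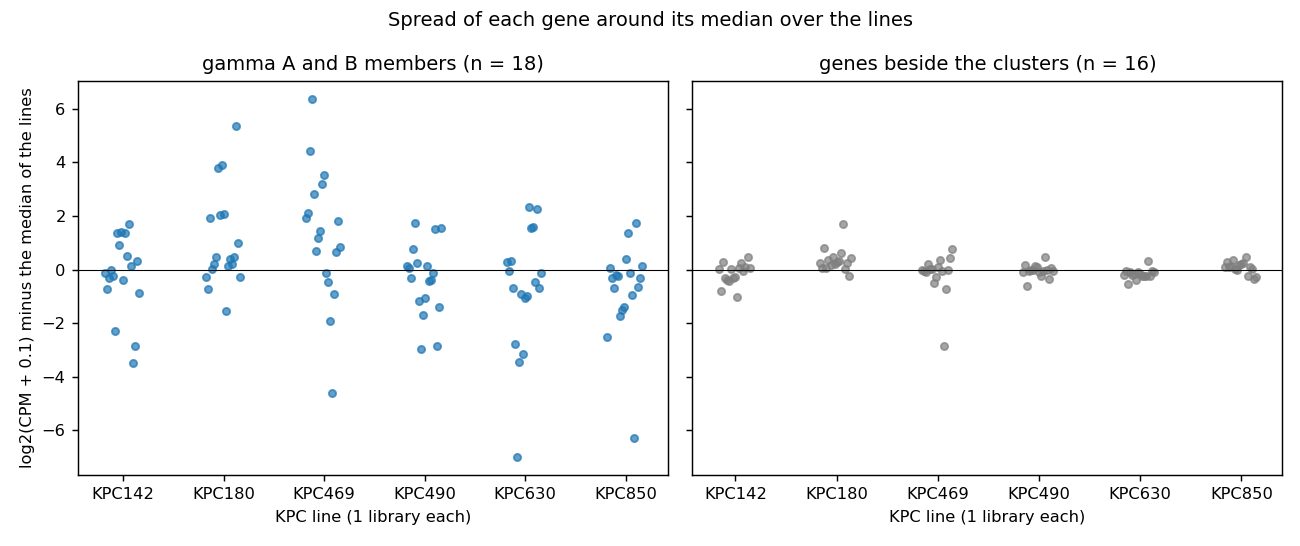
Each point is 1 gene in 1 line (x axis), drawn as log2(CPM + 0.1) minus that gene's median over the 6 lines (y axis), for the 18 expressed gamma A and B genes (left) and the 16 expressed genes beside the clusters (right). The gamma genes scatter over several log2 units in every line, and the genes beside the clusters stay close to 0 except Arap3.

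Other transcripts annotated within the clusters were few. Of 27 other genes within or overlapping the span, 3222401L13Rik, a long non-coding RNA gene just ahead of Pcdhga1, had 105 counts in KPC469, 60 in KPC630, 32 in KPC180, 28 in KPC142, 3 in KPC490 and 2 in KPC850. The antisense gene BC037039, which overlaps the start of Pcdhgc3, had 26 counts in KPC180 and 11 or fewer elsewhere. The library kit marked strand, but the strand setting of the counting is not given in the sources used here, so reads of overlapping genes on opposite strands may not be separated. The 3 fusion models that span from alpha to gamma exons (Gm42416, Gm37013 and Gm37388) had 0 counts in every line.

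Known regulators of these promoters were mostly expressed in every line with small ratios. Of 32 listed genes, 31 reached 1 CPM and 1 of these had a ratio of 4 or more (3.23%, against 27.1% of all expressed genes), with a median ratio of 1.66. Among the 30 that reached 10 CPM, 0 passed, against 15.5% of all such genes. Ctcf, which brings promoter and enhancer together, had 125.6 CPM in KPC180, 112.5 in KPC469, 99.9 in KPC630, 99.8 in KPC142, 90.4 in KPC850 and 88.9 in KPC490. Smchd1, a chromatin repressor of the clusters in mice, ran from 168.6 CPM in KPC630 to 99.9 CPM in KPC142. The gene past 4-fold was Dnmt3b, the DNA methyltransferase that methylates the variable promoters in the mouse embryo, with 2.96 CPM in KPC490, 2.08 in KPC630, 1.498 in KPC142, 1.20 in KPC469, 0.728 in KPC180 and 0.699 in KPC850 (ratio 4.23, 2.23 to 8.73). Ezh2, the Polycomb methyltransferase gene, ran from 215.5 CPM in KPC180 to 85.1 CPM in KPC469. Tet2, encoding an enzyme that oxidises methylcytosine, ran from 47.6 CPM in KPC490 to 21.1 CPM in KPC630.

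Partners and processing enzymes of the proteins were mostly expressed, with small ratios for most. Of 28 listed genes, 25 reached 1 CPM and 3 of these had a ratio of 4 or more (12.0%, against 27.1% of all expressed genes), with a median ratio of 1.62. Among the 23 that reached 10 CPM it was 1, against 15.5% of all such genes. Fyn, a Src-family kinase gene, had 9.16 CPM in KPC630, 8.28 in KPC469, 1.57 in KPC490, 0.910 in KPC180, 0.583 in KPC850 and 0.180 in KPC142, a ratio of 50.9 (17.1 to 249.4) between KPC630 and KPC142. Ret, a receptor tyrosine kinase gene, had 2.77 CPM in KPC630 and 0 counts in KPC142, at least 15.4-fold apart. Wasf1, a subunit gene of the WAVE actin regulator that alpha and gamma cytoplasmic domains engage, ran from 16.5 CPM in KPC490 to 3.54 CPM in KPC142. Nlgn2, encoding a synaptic adhesion protein, ran from 63.9 CPM in KPC490 to 15.999 CPM in KPC142, a ratio of 3.99.

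Pcdh7, the non-clustered protocadherin named in the study's title, had 131.5 CPM in KPC850, 108.6 in KPC180, 47.6 in KPC490, 4.31 in KPC142, 3.78 in KPC630 and 0.109 in KPC469. The number of clustered members at 1 CPM or more was 6 in KPC850, 14 in KPC180, 8 in KPC490, 9 in KPC142, 7 in KPC630 and 24 in KPC469.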

How the data were processed

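Expected counts per Ensembl gene were deposited by the authors for 6 libraries in 1 table. RSEM 1.3.3, STAR 2.7.10b, Trimmomatic 0.36 and the build GRCm39 are given by the submitters' processing notes. Per the labels' protocols, a stranded mRNA kit was used. The strand setting and annotation release are not given in the sources used here. Expected counts were rounded to whole numbers. Totals were adjusted by TMM factors from edgeR 4.0.16 in R 4.3.3, on 11531 genes kept by filterByExpr. Python 3.11.15 with scipy 1.17.1 gave Poisson and conditional binomial intervals. Planned promoter and protein comparisons were not made, and exact 50-base matches between transcripts were used to describe read sharing. The call of a 4-fold ratio, the choice of the highest line and the ratio interval were tried on simulated independent counts. That simulation held no reads shared between genes, and the sums, shares, correlations and 50-base matches were not tried in this way.

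Symbols (52029 of 56953 identifiers matched), gene order, transcript lengths and shared exons came from GENCODE vM21, which is built on GRCm38, so no coordinate is given. Named members are the 20 with the highest level in any line. The other members named were chosen after their values were seen. From the regulator and partner lists the 4 genes with the largest ratio were named, except 1 that is not reported here, and Ctcf and Smchd1 were chosen after their values were seen. The members and lists were chosen with earlier results of these data known. With 1 library per line, edgeR's test was not used. Alternatives were DESeq2 1.42.0 size factors, plain totals, unrounded counts, other thresholds and each line left out.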

Additional observations from a re-analysis of the deposited data

How the results depend on the processing

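When lines were left out singly, the number of expressed members was 17 (without KPC469) to 29, and the number with a ratio of 4 or more 15 (without KPC469) to 27, so both counts rest in part on KPC469. With no filter on the level 49 members had at least 1 count, and the numbers with a count were 38 in KPC469, 37 in KPC180, 33 in KPC142, 32 in KPC490, 25 in KPC850 and 22 in KPC630. At 0.5 CPM, KPC469 expressed 30 members, KPC490 13 and KPC850 10. At 2 CPM, KPC469 expressed 14, KPC180 12 and KPC850 6. Without its highest member, the gamma A ratio of KPC180 to KPC850 was 14.3 and the gamma B ratio was 2.02, with KPC490 as the lowest line. DESeq2 size factors, plain totals and unrounded counts moved no count of members by more than 1.5 times and no summed level out of its counting interval. The lower bound of the counting interval was added as a criterion after seeing the data. No paired analysis was possible because each line has 1 library. Depth limits the low genes: a gene with 0 counts has an upper limit of 0.196 to 0.224 CPM, and intervals do not cover differences between cultures or the division of constant-exon reads.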
